A study of Mus musculus with 12 samples.

Results

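Reg3 lectins and other secreted or surface defences of the gut lining were followed in mouse duodenum through 8 genes, named as a list: Reg3a, Reg3b, Reg3g, Retnlb, Duox2, Duoxa2, Nos2 and Pigr. All 8 stood among the 28731 genes of the table that holds HFD PCN and HFD Vehicle. In the table of HFD and Chow, 7 of the 8 stood among 28066 genes, and Duox2 was not listed there, so it has no value for those 2 groups. The members were chosen by gene symbol with the counts and fold changes of these libraries, HFD against Chow among them, already known, so what follows describes them, and their p-values are no independent support for any pattern.

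The libraries came from C57BL/6N mice in 4 groups of 3. HFD PCN mice ate a high-fat diet (HFD) and then received pregnenolone 16α-carbonitrile (PCN), a steroid ligand of the rodent pregnane X receptor, at 50 mg/kg into the peritoneum once a day for 4 days. HFD Vehicle mice ate the same diet and were injected with 30% DMSO in corn oil, HFD mice ate it with no injection named in the labels, and Chow mice ate standard chow. All were put on their diets at 6 weeks of age and kept on them for 18 weeks. The labels name no transgene or deletion, and no source used here says which libraries, if any, shared an animal, so that p-values measure the spread between these libraries, which may be technical.

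Total counts ran from 4676718 in HFD Vehicle 55 to 20684369 in HFD PCN 5, with a median of 15404357. The tissue label is duodenum, although the extraction text speaks of liver. Vil1, a gene of the enterocyte brush border, had 912 to 2489 CPM (counts scaled to 1000000 per library) in all 12 libraries, and Alb, the main product of hepatocytes, at 0.104 to 1.11 CPM. HFD Vehicle 23 stood apart, with 36.7% of its counts from the mitochondrial genome against 12.2% to 23.4% in the others. The chaperone gene Hsp90aa1 was at 1427 and 1453 CPM in HFD Vehicle 23 and 50, against 60.6 to 465 CPM elsewhere.

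Reg3 proteins are small C-type lectins that gut epithelial cells secrete into the mucus. In mice Reg3g binds the cell wall of Gram-positive bacteria and Reg3b acts on Gram-negative ones, and both are known to be induced by microbes through Toll-like receptor and MyD88 signals and through IL-22, which acts by STAT3. The other members work at the same surface: the dual oxidase Duox2 with its maturation factor Duoxa2 makes hydrogen peroxide, Nos2 makes nitric oxide, Retnlb is a goblet cell product, and Pigr carries dimeric IgA into the lumen.

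The Reg genes lie together on chromosome 6 (GRCm38, as in the deposited tables). Reg3b (ENSMUSG00000071356) spans 78370657 to 78373466 on the plus strand, Reg3a (ENSMUSG00000079516) spans 78380709 to 78383827 on the plus strand, and Reg3g (ENSMUSG00000030017) spans 78466269 to 78468872 on the minus strand. Reg3d, Reg2 and Reg1 lie between them, and the whole run covers 98.2 kb. The 250 bases before the RefSeq start of Reg3b, Reg3g and Reg3a are shown as a description, and their part in the levels of the lectins was not tested. Capitals mark 2 motifs searched on both strands, TATAAA, the TATA box, and TTCNNNGAA, the palindrome bound by STAT factors. The sequences are RefSeq's, build GRCm38.p6, each read 5′ to 3′ on the gene's own strand, from chr6:78370635-78370884 (plus) for Reg3b, chr6:78468875-78469124 (minus) for Reg3g and chr6:78380459-78380708 (plus) for Reg3a. The RefSeq start of Reg3b lies inside the span that the deposited table gives.
Reg3b: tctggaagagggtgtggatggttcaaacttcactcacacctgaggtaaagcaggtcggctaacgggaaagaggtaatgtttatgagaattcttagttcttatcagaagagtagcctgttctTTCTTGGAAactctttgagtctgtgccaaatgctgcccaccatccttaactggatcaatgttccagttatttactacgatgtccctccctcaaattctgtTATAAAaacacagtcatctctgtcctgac
Reg3g: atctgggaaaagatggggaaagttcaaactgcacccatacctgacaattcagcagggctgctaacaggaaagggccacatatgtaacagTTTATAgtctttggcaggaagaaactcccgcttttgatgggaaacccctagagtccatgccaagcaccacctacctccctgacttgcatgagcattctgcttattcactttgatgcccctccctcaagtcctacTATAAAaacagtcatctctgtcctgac
Reg3a: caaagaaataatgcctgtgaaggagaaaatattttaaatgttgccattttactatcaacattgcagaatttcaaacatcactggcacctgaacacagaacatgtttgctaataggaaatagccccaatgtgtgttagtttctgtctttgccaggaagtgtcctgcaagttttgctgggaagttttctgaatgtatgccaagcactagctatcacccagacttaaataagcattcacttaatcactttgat
The Reg3b window held a STAT palindrome at -129 to -121 and a TATA box at -29 to -24, counted from the base before the start as -1. The Reg3g window held no STAT palindrome, a TATA box at -27 to -22 and a reverse-strand match at -161 to -156. The Reg3a window held neither motif. It ends in tcactttgat, bases that lie upstream of the TATA box at -27 to -22 in the Reg3g window. What follows those bases in Reg3a was not searched. The STAT palindrome was in 7.02% and the TATA motif in 12.4% of the 32851 mouse windows of the same length, so each match is a description only.

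The windows of Reg3b and Reg3g were 68.4% identical when aligned, and the last 20 bases before the start were the same in both, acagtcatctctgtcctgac. Reg3a's window was 43.9% identical to that of Reg3b and 47.2% identical to that of Reg3g, with no shared run longer than 11 bases. These shares count columns with a gap, as in 141 identical of 299 columns with Reg3g. As the Reg3a window is cut at an unlike place, the lower shares do not measure how far its sequence diverged. Over the longest protein-coding transcripts Reg3b was 67.4% identical to Reg3g and 67.5% to Reg3a, and Reg3g was 63.1% identical to Reg3a. The longest identical run between any pair of the 3 transcripts was 35 bases, between Reg3b and Reg3g. The read length and the treatment of reads with several matches are not given in the sources used here, so a share of reads placed on the wrong Reg3 gene was not tested.

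Reg3b was the lectin with the largest difference between diets. It stood at 60.9, 81.5 and 65 CPM in HFD 4, 30 and 38, against 674, 339 and 1008 CPM in Chow 8, 17 and 19. These values are CPM scaled by TMM over all 12 libraries, the scale of every level given by library here unless another is named. The 3 HFD libraries lay close together, and each was below every Chow library, whose values spread 2.97-fold. The fitted log2 fold change was -3.27 ± 0.37 (SE), a level 9.63-fold lower in HFD (edgeR's quasi-likelihood test, Benjamini-Hochberg adjusted p 0.0257 over all genes tested). Reg3b was the 1 of 4 tested members that passed an adjusted p of 0.05, where 0.0589% of the 15278 genes tested were called lower and 0.00655% higher, or 0.0655% in all. The call was lost without HFD 4 (adjusted p 0.197), without HFD 30 (0.121) and without Chow 8 (0.0593), with fold changes of -3.20, -3.41 and -3.28. In bulk tissue, fewer cells that make a lectin and less of its RNA per cell cannot be told apart.

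Reg3g followed Reg3b in direction. It stood at 24.5, 11.1 and 28.5 CPM in HFD 4, 30 and 38, against 115, 71.5 and 178 CPM in Chow 8, 17 and 19. The groups did not overlap, and the order of the Chow libraries was that of Reg3b, with Chow 19 highest and Chow 17 lowest. The fitted log2 fold change was -2.51 ± 0.46 (SE), but the adjusted p was 0.195 by edgeR's quasi-likelihood test, so Reg3g did not pass. By DESeq2, which called 137 genes, the same fold change had an adjusted p of 1.19e-09. In the authors' deposited table Reg3g had a log2 fold change of -1.71 with an adjusted p of 1.27e-07. The authors' value for Reg3b in that table was -2.38 with an adjusted p of 2.07e-18. Their fold changes are smaller in size than those fitted here for both genes.

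Reg3a did not separate the diets. It stood at 13.4, 12.9 and 77.1 CPM in HFD 4, 30 and 38, against 48.6, 47 and 81.1 CPM in Chow 8, 17 and 19. HFD 4 and HFD 30 were below every Chow library, while HFD 38 lay near the highest of them. The fitted log2 fold change was -0.74 ± 0.81 (SE, edgeR adjusted p 0.776). Without HFD 38 it was -2.15 ± 0.27 with an edgeR adjusted p of 0.00788, in a fit that called 63 genes, so that this 1 library decided the value. Reg3d, the remaining Reg3 gene of the cluster, had 0 to 5 counts in the HFD libraries and 1 to 14 in the Chow libraries, too few to be tested.

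**Figure D1:**
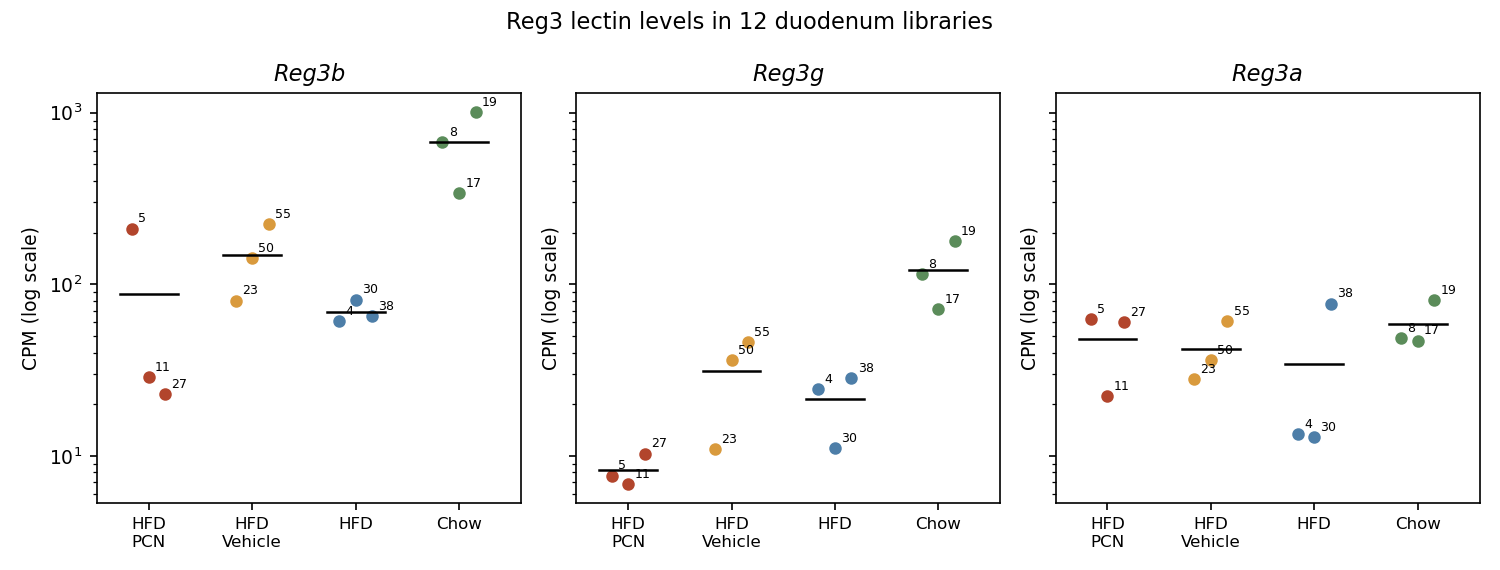
Levels of Reg3b, Reg3g and Reg3a in CPM scaled by TMM over 12 libraries, on a log axis, with 1 point per library labelled by its number and a bar at each group's mean (n = 3). For Reg3b and Reg3g the 3 Chow libraries sit above all 9 libraries of the high-fat diet groups, while for Reg3a HFD 38 sits among the Chow libraries.

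Among the mice on the high-fat diet, Reg3g had its lowest levels after PCN. It stood at 7.68, 6.84 and 10.3 CPM in HFD PCN 5, 11 and 27, against 10.9, 36 and 46.2 CPM in HFD Vehicle 23, 50 and 55. The nearest pair, HFD PCN 27 and HFD Vehicle 23, differed by under 1 CPM, and the groups overlapped when CPM was taken over the library total, where HFD PCN spanned 6.07 to 11.2 and HFD Vehicle 8.61 to 48.5. The fitted log2 fold change was -1.90 ± 0.46 (SE, unadjusted p 0.00219, adjusted p 0.231 by edgeR), a level 3.74-fold lower in HFD PCN that did not pass. It passed by DESeq2 (adjusted p 0.00387), where 320 genes were called. By edgeR it passed without HFD Vehicle 23 (-2.32, adjusted p 0.0166), where 5 genes were called. It also passed without HFD Vehicle 55 (-1.53, edgeR adjusted p 0.0488), where 3697 genes were called. Without both HFD Vehicle 23 and 50 the log2 fold change was -2.49, in a fit that leaves 1 HFD Vehicle library. The authors' deposited table gives Reg3g a value of -1.51 on the log2 scale and an adjusted p of 0.0116.

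Reg3b was uneven among the PCN libraries. It stood at 211, 28.8 and 22.9 CPM in HFD PCN 5, 11 and 27, against 80.4, 142 and 224 CPM in HFD Vehicle 23, 50 and 55. HFD PCN 5 lay within the HFD Vehicle range, and the other 2 PCN libraries lay below every other library of the study. The fitted log2 fold change was -0.75 ± 0.92 (SE, edgeR adjusted p 0.664). Without HFD PCN 5 it was -2.52 ± 0.44 (adjusted p 0.267), so that this 1 library decided its size. Reg3a stood at 62.7, 22.3 and 59.9 CPM in HFD PCN 5, 11 and 27, against 28, 36 and 61.2 CPM in HFD Vehicle 23, 50 and 55. The groups overlapped, and its log2 fold change of 0.22 ± 0.40 (edgeR adjusted p 0.779) was smaller than its error.

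Of the 5 members tested in HFD PCN against HFD Vehicle 0 passed by edgeR's quasi-likelihood test, where 0.0621% of 16110 genes did, 0.0497% higher and 0.0124% lower. At an unadjusted p under 0.05 there were 2 of the 5, Reg3g and Duox2, where 17.9% of all tested genes reached that level, and DESeq2 called 320 genes, with 1 member among them, Reg3g.

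Set against the HFD group, the same PCN libraries gave a log2 fold change of -1.37 ± 0.33 (SE) for Reg3g, with an unadjusted p of 0.00175 and an adjusted p of 0.118 by edgeR. By DESeq2 the adjusted p was 0.0041, and without HFD 30 edgeR gave -1.70 with an adjusted p of 0.024, in a fit that called 14 genes. Over the library total the groups overlapped, at 6.07 to 11.2 CPM in HFD PCN and 10.5 to 30.2 CPM in HFD. The comparison uses the HFD PCN libraries again, so it is no second measurement of the PCN group. Reg3b had a log2 fold change of 0.33 ± 1.0 in it (edgeR adjusted p 0.888), which turned to -1.45 ± 0.24 (adjusted p 0.0179) without HFD PCN 5, a fit that leaves 2 PCN libraries and called 29 genes. For Reg3a it was 0.45 ± 0.92 (adjusted p 0.828), and 1.88 ± 0.47 (adjusted p 0.0881) without HFD 38. Of 4 tested members 0 passed with all libraries, where 0.325% of 15982 genes did, 0.244% higher and 0.0813% lower. Reg3g was the 1 member under an unadjusted p of 0.05, which 18.2% of all tested genes reached, and the 1 member among the 394 genes that DESeq2 called. DESeq2 gave no adjusted p for Reg3b.

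Between HFD Vehicle and HFD, which ate the same diet, the groups overlapped for each of the 3 lectins. Reg3b averaged 149 ± 71.8 CPM in HFD Vehicle, against 69.2 ± 10.9 CPM in HFD (SD, n = 3 each), a log2 fold change of 1.08 ± 0.34 (SE, unadjusted p 0.0115, edgeR adjusted p 0.803). HFD Vehicle 23, at 80.4 CPM, overlapped with HFD 30, at 81.5 CPM. For Reg3g the log2 fold change was 0.52 ± 0.50 (adjusted p 0.82) and for Reg3a 0.25 ± 0.64 (adjusted p 0.929). Of 4 tested members 0 passed, and edgeR called 0% of the 16255 genes. Reg3b was the 1 member under an unadjusted p of 0.05, which 5.86% of genes reached, and DESeq2 called 29 genes and no member. Without HFD Vehicle 23 and 50 the log2 fold changes were 1.67 for Reg3b and 1.11 for Reg3g, in a fit that leaves 1 HFD Vehicle library. Cell type markers differed here too. Paneth genes summed to 585 to 2635 CPM in HFD Vehicle and 253 to 701 CPM in HFD, with 8 of 8 tested fold changes positive, a median of 2.20 and 8 at an unadjusted p under 0.05. The acinar genes summed to 11.4 to 83.2 CPM in HFD Vehicle and 4.46 to 25.5 CPM in HFD, with 10 of 10 positive and a median of 1.72, and 0 genes of either list were called by edgeR. The innate lymphoid markers summed to 74.5 to 85.3 CPM in HFD Vehicle and 47.5 to 53.1 CPM in HFD, though 3 of 4 tested fold changes were negative. Other lists went the other way. Positive fold changes were 0 of 9 for T and NK genes (median -0.68), 1 of 9 for enterocyte genes (median -0.24) and 1 of 7 for myeloid genes (median -0.57). The part of any of these lists in the level of Reg3b was not tested.

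**Figure D2:**
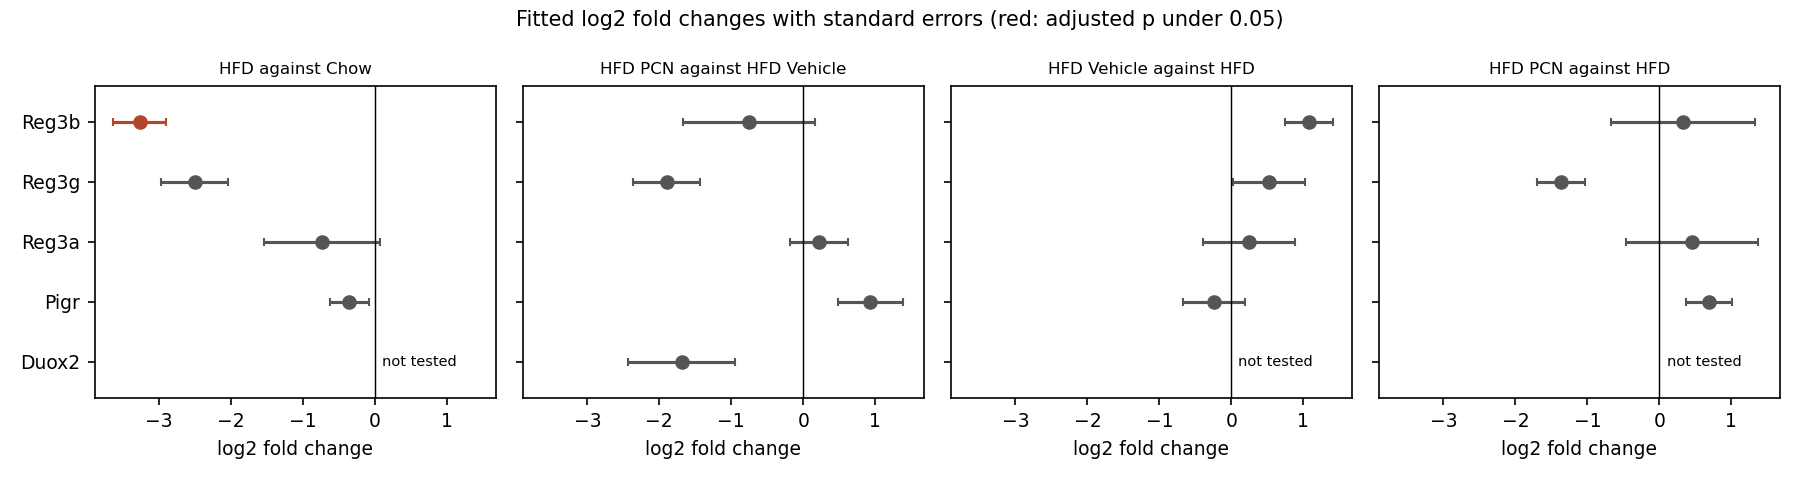
Fitted log2 fold changes of the 5 members that could be tested, with bars of 1 standard error, in each of the 4 comparisons; red marks an adjusted p under 0.05. Reg3b in HFD against Chow, at -3.27, is the 1 value that passed, and Reg3g is below 0 in HFD against Chow (-2.51), HFD PCN against HFD Vehicle (-1.90) and HFD PCN against HFD (-1.37), comparisons that share libraries.

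The make-up of the Reg3 counts within a library needs no scaling between libraries. Reg3b made up 61.7%, 77.3% and 38.1% of the summed Reg3a, Reg3b and Reg3g counts in HFD 4, 30 and 38, against 80.5%, 74.1% and 79.6% in Chow 8, 17 and 19. HFD 30 lay within the Chow range and the other 2 HFD libraries below it. Reg3a made up 13.6%, 12.2% and 45.2% in HFD 4, 30 and 38, against 5.81%, 10.3% and 6.4% in Chow 8, 17 and 19. All 3 HFD libraries lay above every Chow library in this share. The ratio of Reg3b to Reg3a counts was 4.55, 6.34 and 0.844 in HFD 4, 30 and 38, against 13.9, 7.22 and 12.4 in Chow 8, 17 and 19. It did not exceed 3.95 in any HFD PCN or HFD Vehicle library, so that every library of the high-fat diet groups was below the lowest Chow library. A lower Reg3b by itself raises the Reg3a share and lowers this ratio, so neither is a difference separate from that in Reg3b. The levels of Reg3a overlapped between HFD and Chow.

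The ratio of Reg3b to Reg3g counts did not set the diets apart. It was 2.49, 7.35 and 2.28 in HFD 4, 30 and 38, against 5.88, 4.75 and 5.68 in Chow 8, 17 and 19. After PCN it was most uneven, at 27.4, 4.22 and 2.23 in HFD PCN 5, 11 and 27, against 7.35, 3.95 and 4.84 in HFD Vehicle 23, 50 and 55. HFD PCN 5 combined the lowest Reg3g share of any library, 2.73%, with a Reg3b share of 75%. In HFD PCN 27 Reg3a was the leading lectin, at 64.4% of the counts, as it was in HFD 38 at 45.2%. The 3 HFD Vehicle libraries were alike in Reg3b share, at 67.4%, 66.4% and 67.5%, although their summed Reg3 levels ran from 119 to 331 CPM.

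**Figure D3:**
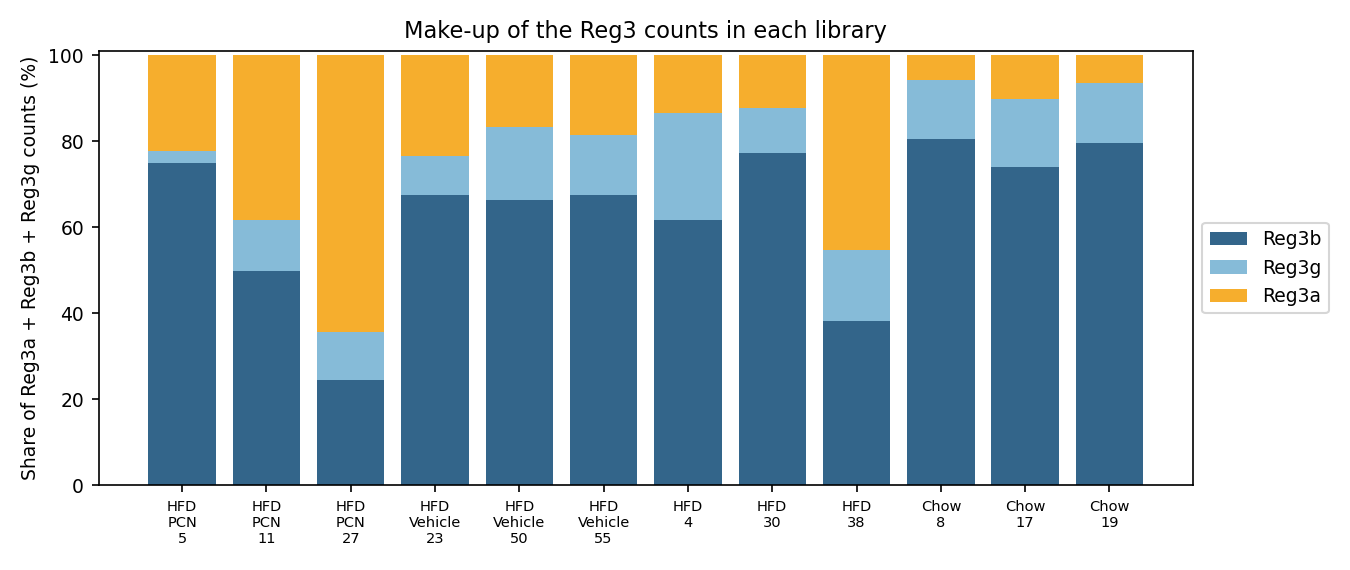
Share of Reg3b, Reg3g and Reg3a in the summed counts of the 3 genes, in percent, with 1 bar per library. Reg3a takes 5.81% to 10.3% in the Chow libraries and 12.2% to 64.4% in the libraries of the high-fat diet groups, with the largest shares in HFD PCN 27 and HFD 38. A lower Reg3b by itself raises the share of Reg3a.

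Per kilobase of transcript (FPKM), which allows genes to be compared, the order of the lectins differed by group. In HFD libraries Reg3b averaged 88.3 ± 13.9, Reg3a 41.7 ± 44.7 and Reg3g 27.7 ± 11.8 FPKM (SD, n = 3). In Chow libraries Reg3b averaged 860 ± 427, Reg3g 157 ± 69.2 and Reg3a 71.4 ± 23.3 FPKM (SD, n = 3). In HFD PCN libraries the means were 112 ± 136 FPKM for Reg3b, 58.5 ± 27.4 for Reg3a and 10.7 ± 2.31 for Reg3g, and in HFD Vehicle libraries 190 ± 91.7, 50.6 ± 21 and 40.3 ± 23.5 in the same order of genes. In HFD PCN every library had more Reg3a, at 27 FPKM or above, than any had Reg3g, at 13.3 FPKM or below. Within each Chow library the order was the other way, with Reg3g at 149, 92.7 and 230 FPKM and Reg3a at 59, 56.9 and 98.3 FPKM in Chow 8, 17 and 19. In HFD and HFD Vehicle the order of Reg3a and Reg3g differed between libraries.

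Reg1, a pancreatic and proximal gut relative in the same cluster, did not share the difference between diets. It averaged 1083 ± 398 CPM in HFD and 1069 ± 332 CPM in Chow (SD, n = 3 each), with a log2 fold change of 0.04 ± 0.32 (edgeR adjusted p 0.977). Reg4, a goblet and endocrine cell relative on another chromosome, averaged 38.1 ± 4.14 CPM in HFD and 35.8 ± 4.46 CPM in Chow (log2 fold change 0.10 ± 0.16, adjusted p 0.842). Against HFD Vehicle, the PCN libraries gave 0.48 ± 0.46 for Reg1 and -0.54 ± 0.26 for Reg4 (edgeR adjusted p 0.561 and 0.296). These 2 were the tested ones of 4 relatives, since Reg2 and Reg3d were too low.

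The polymeric immunoglobulin receptor gene Pigr (ENSMUSG00000026417, chromosome 1, 130826684 to 130852249) was the most abundant member per length in every group, at a mean of 1740 FPKM in HFD PCN, 915 in HFD Vehicle, 1072 in HFD and 1391 in Chow. After PCN it stood at 7938, 7322 and 4827 CPM in HFD PCN 5, 11 and 27, against 1686, 4138 and 4745 CPM in HFD Vehicle 23, 50 and 55. All PCN libraries lay above all HFD Vehicle libraries, though HFD PCN 27 and HFD Vehicle 55 nearly met. The log2 fold change was 0.93 ± 0.45 (SE, unadjusted p 0.0664, edgeR adjusted p 0.3), which did not pass, and the authors' deposited table gives 0.81 with an adjusted p of 0.27. The lowest value, in HFD Vehicle 23, stood in the library with the high mitochondrial share, and without it the log2 fold change was 0.59 ± 0.29 (edgeR adjusted p 0.581). Against the HFD group the log2 fold change of Pigr in the PCN libraries was 0.69 ± 0.32 (unadjusted p 0.0516, edgeR adjusted p 0.278).

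Between diets Pigr stood at 3711, 4156 and 4511 CPM in HFD 4, 30 and 38, against 5963, 4590 and 5507 CPM in Chow 8, 17 and 19. The groups did not overlap, but HFD 38 and Chow 17 were 79 CPM apart. Its log2 fold change was -0.36 ± 0.27 (SE, edgeR adjusted p 0.638). With Reg3b and Reg3g it made 3 of the 4 tested members in which every HFD library was below every Chow library, an arrangement seen in 8.8% of the genes tested, with 7.61% the other way round. The tested members without overlap in HFD PCN against HFD Vehicle were Reg3g, lower, and Pigr, higher, where 9.65% of genes were without overlap and lower and 9.68% without overlap and higher. In HFD PCN against HFD these were the same 2, where 11.7% were lower and 11.5% higher, and in HFD Vehicle against HFD no tested member was without overlap, where 4.94% were higher and 4.91% lower.

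Genes of the IgA cargo that Pigr carries did not pass in either comparison. The joining chain gene Jchain averaged 322 ± 45.6 CPM in HFD and 434 ± 176 CPM in Chow, and the IgA heavy chain gene Igha 1177 ± 154 CPM in HFD and 1438 ± 977 CPM in Chow (SD, n = 3 each). After PCN, Jchain averaged 429 ± 74 CPM in HFD PCN and 279 ± 369 CPM in HFD Vehicle, and Igha 1209 ± 363 CPM in HFD PCN and 1134 ± 809 CPM in HFD Vehicle. Of 7 tested genes of this list 4 had positive and 3 negative fold changes in HFD against Chow, and 5 positive and 2 negative in HFD PCN against HFD Vehicle, with 0 called in each by edgeR. At an unadjusted p under 0.05 there were 0 and 1 of them in these 2 comparisons, where 10.3% and 17.9% of all tested genes reached that level.

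The oxidant genes were close to the limit of detection. Duox2 (ENSMUSG00000068452, chromosome 2, 122279247 to 122298165, minus strand) had 6, 3 and 11 counts in HFD PCN 5, 11 and 27, against 25, 11 and 14 counts in HFD Vehicle 23, 50 and 55. Scaled for depth these were 0.299, 0.211 and 1.07 CPM in HFD PCN, against 1.77, 0.584 and 2.85 CPM in HFD Vehicle, and the groups overlapped. The log2 fold change was -1.69 ± 0.74 (SE, unadjusted p 0.0463, edgeR adjusted p 0.275). It was -2.57 without HFD PCN 27, not called, and -2.54 without HFD Vehicle 23 and 50, a fit that leaves 1 HFD Vehicle library. Its maturation factor Duoxa2 (ENSMUSG00000027225) lies 734 bases away on the other strand and had 0, 1 and 3 counts in HFD PCN 5, 11 and 27, against 0, 2 and 1 in HFD Vehicle 23, 50 and 55. In HFD 4, 30 and 38 Duoxa2 had 0, 0 and 51 counts, against 1, 5 and 7 counts in Chow 8, 17 and 19. The 51 counts of HFD 38, or 2.88 CPM, were the highest of any library, and HFD 38 was also the HFD library with the high Reg3a.

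Nos2 (ENSMUSG00000020826, chromosome 11, 78920787 to 78960254) had 1, 5 and 3 counts in HFD PCN 5, 11 and 27, against 9, 22 and 2 counts in HFD Vehicle 23, 50 and 55. On the CPM scale HFD PCN lay at 0.0499 to 0.352 and HFD Vehicle at 0.407 to 1.17 without overlap, on few counts. In HFD 4, 30 and 38 it had 2, 4 and 14 counts, against 5, 6 and 18 counts in Chow 8, 17 and 19, and the groups overlapped. Retnlb (ENSMUSG00000022650, chromosome 16) had 0 counts in 9 of the 12 libraries and 1 count in HFD Vehicle 55, 4 in HFD 38 and 1 in Chow 19. The 0 counts of the HFD PCN group allow a mean level of up to 0.0675 CPM, the level of 3 counts over its 3 libraries, which covers counting error only. Nos2, Duoxa2 and Retnlb did not pass the filter on low counts, so no test was made of them here. The authors' deposited table gives Nos2 a log2 fold change of -0.84 in HFD PCN against HFD Vehicle (adjusted p 0.493) and of -0.26 in HFD against Chow (adjusted p 0.942).

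**Figure D4:**
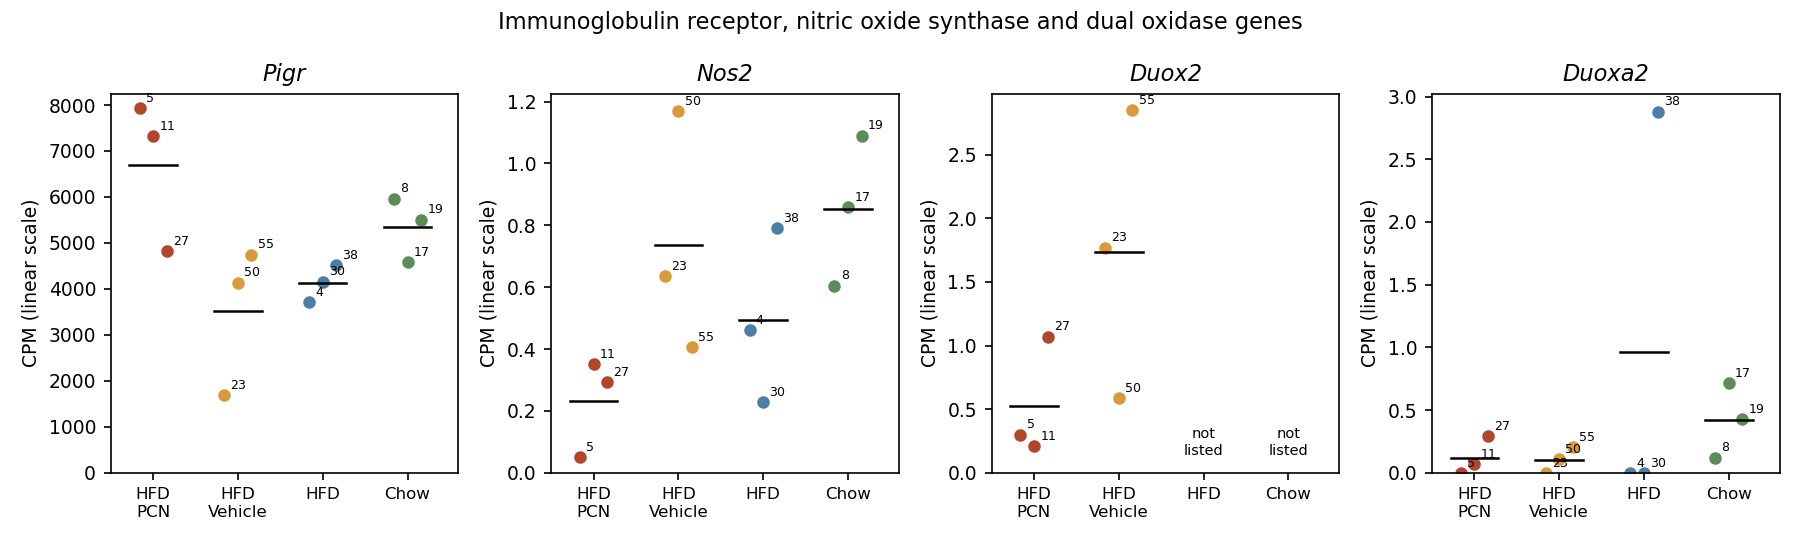
Levels of Pigr, Nos2, Duox2 and Duoxa2 in CPM scaled by TMM over 12 libraries, each panel on its own linear axis from 0, with 1 point per library and a bar at each group's mean (n = 3). Pigr lies between 1686 and 7938 CPM while the other 3 genes stay below 3 CPM, and Duox2 is not listed for HFD and Chow.

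Other genes of the oxidant systems gave no call. The dual and NADPH oxidase list had 7 positive and 1 negative fold changes among 8 tested genes in HFD against Chow (median 0.15) and 3 positive and 5 negative in HFD PCN against HFD Vehicle (median -0.29). In HFD PCN against HFD it had 0 positive and 8 negative (median -0.63), and so it had in HFD Vehicle against HFD (median -0.38). The medians over all tested genes in these 4 comparisons were 0.00, -0.01, 0.00 and 0.01, in the order given. By edgeR 0, 1, 4 and 1 genes of the list were at an unadjusted p under 0.05. Among all tested genes 10.3%, 17.9%, 18.2% and 5.86% reached that level. Noxo1, the organizer of the colonic NADPH oxidase, averaged 18.7 ± 3.57 CPM in HFD and 13.8 ± 2.57 CPM in Chow (SD, n = 3 each, log2 fold change 0.44 ± 0.22, edgeR adjusted p 0.502). In the nitric oxide and arginine list, 7 genes were tested in HFD against Chow and 8 in HFD PCN against HFD Vehicle, with 0 called in each by edgeR. Nos1, the neuronal synthase, averaged 3.32 ± 1.15 CPM in HFD PCN and 7.51 ± 4.96 CPM in HFD Vehicle (SD, n = 3 each, log2 fold change -1.23 ± 0.49, unadjusted p 0.0302, edgeR adjusted p 0.254).

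Genes of the upstream signals by which Reg3b and Reg3g are known to be induced gave no call by edgeR. Their RNA does not measure the activity of these signals, whose part in the levels of the lectins was not tested. Il22, Il17a and Il23a were too low to be tested. The IL-22 receptor gene Il22ra1 averaged 65.6 ± 14.2 CPM in HFD and 71 ± 15.8 CPM in Chow (SD, n = 3 each, log2 fold change -0.10 ± 0.21, edgeR adjusted p 0.893), and Stat3, the factor downstream of it, 135 ± 37.2 CPM in HFD and 135 ± 6.38 CPM in Chow (0.02 ± 0.20, adjusted p 0.983). Of the IL-22 and IL-17 list 8 of 13 tested genes had positive fold changes in HFD against Chow, with a median of 0.02, and 5 of 14 in HFD PCN against HFD Vehicle, with a median of -0.13. By edgeR 0 were called in each, and at an unadjusted p under 0.05 there were 0 and 4, where 10.3% and 17.9% of all tested genes reached that level in these 2 comparisons.

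Among genes of microbe sensing, Myd88, the adaptor of Toll-like receptors, averaged 13.2 ± 0.915 CPM in HFD and 12.5 ± 3.18 CPM in Chow (log2 fold change 0.11 ± 0.22, edgeR adjusted p 0.885), and 9.48 ± 1.37 CPM in HFD PCN and 12.6 ± 1.15 CPM in HFD Vehicle (-0.42 ± 0.23, edgeR adjusted p 0.347; SD, n = 3 each). Nod2, a sensor of bacterial cell wall, averaged 4.8 ± 2.1 CPM in HFD and 2.74 ± 0.377 CPM in Chow (0.76 ± 0.35, edgeR adjusted p 0.485). Of the 14 sensing genes tested in HFD PCN against HFD Vehicle 3 had positive and 11 negative fold changes, with a median of -0.40, against 8 positive and 4 negative of 12 in HFD against Chow, with a median of 0.20. By edgeR 0 passed in each, and at an unadjusted p under 0.05 there were 1 and 0, where 17.9% and 10.3% of all tested genes reached that level. The interferon gamma response list had 3 positive and 7 negative fold changes in HFD against Chow (median -0.24) and 6 positive and 4 negative in HFD PCN against HFD Vehicle (median 0.13), with 0 called and 0 at an unadjusted p under 0.05 in each.

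Of the other epithelial defence products, 10 of 23 were tested in HFD against Chow and 1 was called. Mptx2, a mucosal pentraxin, averaged 0.0957 ± 0.12 CPM in HFD and 2.95 ± 1.41 CPM in Chow (SD, n = 3 each, log2 fold change -5.59 ± 0.78, edgeR adjusted p 0.0403), at few reads. After PCN 13 were tested against HFD Vehicle and 0 called by edgeR, with 5 at an unadjusted p under 0.05, which 17.9% of all tested genes reached. The largest differences among those named were in the small proline-rich genes Sprr2a1, with 2.6 ± 1.67 CPM in HFD PCN and 0.439 ± 0.501 CPM in HFD Vehicle (log2 fold change 3.09 ± 0.79, edgeR adjusted p 0.231), and Sprr2a2, with 1.39 ± 0.616 CPM in HFD PCN and 0.0531 ± 0.0919 CPM in HFD Vehicle (4.05 ± 0.82, edgeR adjusted p 0.202). These near-identical copies may share reads. Lcn2, Saa1, Saa2, Saa3, S100a8 and S100a9, inflammatory products of epithelium and neutrophils, were too low to be tested in these 2 comparisons.

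Markers of some other cell types differed between HFD and Chow as well. The summed level of 11 pancreatic acinar genes was 4.46 to 25.5 CPM in HFD and 49.3 to 133 CPM in Chow, and the pancreatic amylase gene Amy2a5 was at 0 in every HFD library. Of 10 tested acinar genes 10 had negative fold changes in HFD against Chow, with a median of -3.12, 0 called by edgeR and 8 at an unadjusted p under 0.05, which 10.3% of all tested genes reached. Reg3b and Reg3g are known to be made by injured acinar cells too, and the part of attached pancreas in their difference was not tested. Reg1, also made by acinar cells, averaged 1083 CPM in HFD and 1069 CPM in Chow. The highest acinar sum was 133 CPM, and how much of the Reg1 RNA came from attached pancreas was not tested. The 9 T and NK cell markers summed to 36.2 to 91.8 CPM in HFD and 115 to 205 CPM in Chow, with 9 of 9 negative fold changes (median -1.17). The Paneth list had 6 of 6 negative fold changes (median -0.46) and the myeloid list 6 of 7 positive (median 0.48). By edgeR 1 Paneth and 3 myeloid genes were at an unadjusted p under 0.05, and the sums of both lists overlapped between the diets. The 6 innate lymphoid markers lay at 47.5 to 53.1 CPM in HFD and 44.3 to 48.3 CPM in Chow. Of 4 tested innate lymphoid genes 3 had positive and 1 negative fold changes. By edgeR 2 were at an unadjusted p under 0.05, Il1rl1 higher in HFD (log2 fold change 1.58) and Il7r lower (-0.88). The 9 enterocyte markers lay at 18745 to 36049 CPM in HFD and 25316 to 31528 CPM in Chow.

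In the PCN comparison the markers of several cell types differed. The 9 Paneth cell genes, antimicrobial products of the crypt base, summed to 276 to 590 CPM in HFD PCN and 585 to 2635 CPM in HFD Vehicle. Of 9 tested fold changes 9 were negative, with a median of -2.49 and 0 called by edgeR. At an unadjusted p under 0.05 there were 9, where 17.9% of all tested genes reached that level. By library the Paneth sum was 2635, 1197 and 585 CPM in HFD Vehicle 23, 50 and 55, where Reg3g was at 10.9, 36 and 46.2 CPM. The acinar genes summed to 2.4 to 19.9 CPM in HFD PCN, where Amy2a5 was at 0, and to 11.4 to 83.2 CPM in HFD Vehicle, with 9 of 9 tested fold changes negative and a median of -2.34. The T and NK markers went the other way, at 69.6 to 113 CPM in HFD PCN and 16.2 to 83.2 CPM in HFD Vehicle. The 9 enterocyte markers, of the cells that make Pigr, had 9 of 9 positive fold changes with a median of 0.44. Their sum was 31611 to 34952 CPM in HFD PCN, against 11664, 27348 and 33504 CPM in HFD Vehicle 23, 50 and 55. HFD Vehicle 23, the library with the high mitochondrial share, had the lowest enterocyte sum, the lowest Pigr and the highest Paneth sum. The plasma cell markers, the source of IgA, overlapped, at 1187 to 1989 CPM in HFD PCN and 655 to 2825 CPM in HFD Vehicle. The part of any of these in the levels of Reg3g and Pigr was not tested.

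**Figure D5:**
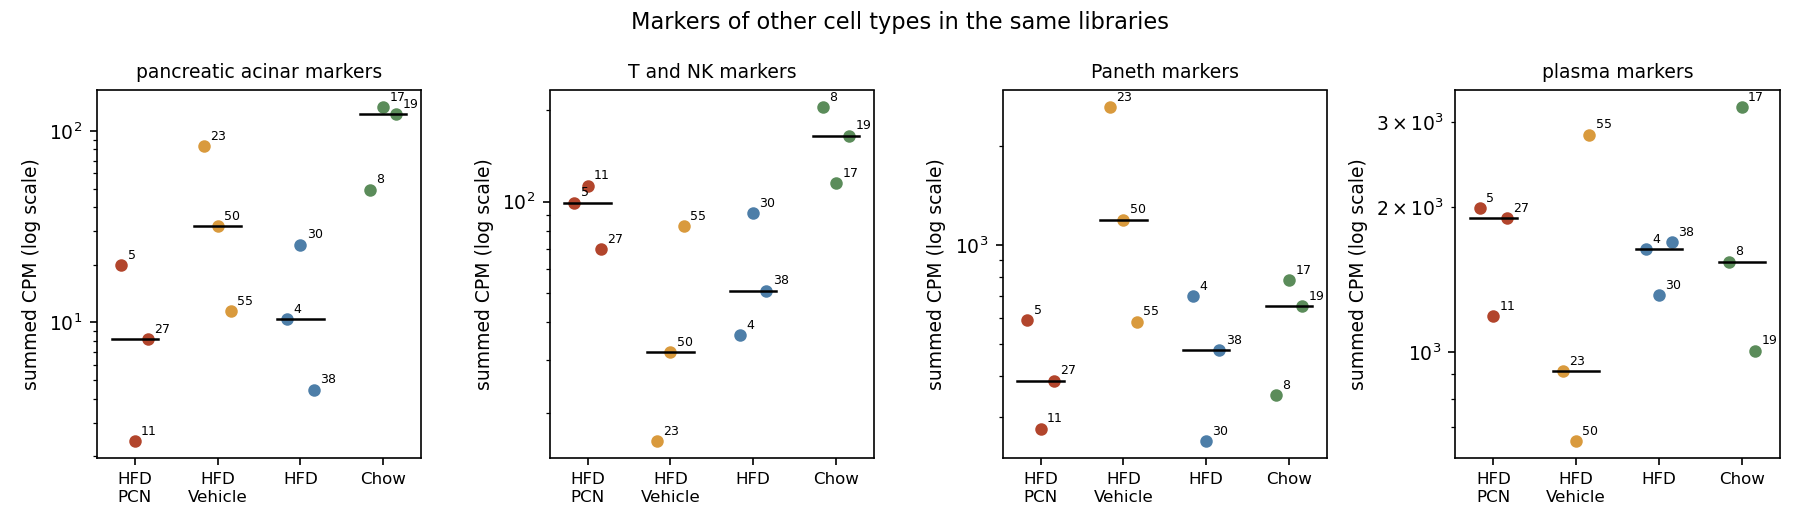
Summed CPM, scaled by TMM over 12 libraries, of marker genes of pancreatic acinar (11 genes), T and NK (9), Paneth (9) and plasma cells (6), each panel on its own log axis, with 1 point per library and a bar at each group's median. The acinar and the T and NK sums of the 3 HFD libraries lie below those of the 3 Chow libraries, and the Paneth sum is highest in HFD Vehicle 23 at 2635 CPM.

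Likeness of pattern across the 12 libraries was Pearson's r of log2(CPM + 1), with CPM over the library total and no TMM. It was ranked among 9778 protein-coding genes listed for all 12 libraries with a mean of at least 5 CPM. Members, predicted genes and immunoglobulin and T cell receptor segments were left out. The genes most like Reg3b were Cenpj (0.90), Trp53bp2 (0.89), Car8 (0.87), Pot1b (0.86) and Irgm2 (0.86). Reg3g had 0.84, Reg3a 0.50, Nos2 0.49 and Pigr 0.31 with Reg3b. Irgm2 is an interferon-induced GTPase gene and Car8 a carbonic anhydrase relative. For Pigr the 5 nearest genes, Lysmd3, Synj2bp, Uba3, Rab6a and Tmed7, each had 0.98. The points share the 4 groups, the depth of each library and the low HFD Vehicle 23, and for Reg3b the Chow libraries stand apart from the rest, so these values rank genes and do no more.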

How the data were processed

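RNA from 12 duodenum libraries was sequenced. The authors deposited raw read counts per gene in 2 tables of 6 libraries each, made with HTSeq after HISAT2 alignment to GRCm38 (mm10), tools that the submitters' processing notes name together with DESeq2. Not given in the sources used here are their versions, the strand setting and the annotation release. Log2 fold changes and p-values of the authors, deposited beside the counts with decimal commas, were used only where their table is named. Genes absent from a table have no value for its groups. No value column was without a sample.

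Counts of the 6 libraries of each comparison were fitted in R 4.3.3 with edgeR 4.0.16 (TMM, filterByExpr, robust quasi-likelihood F-test), and genes with a Benjamini-Hochberg adjusted p under 0.05 over all genes tested were called. Comparisons with HFD of either injected group joined the raw counts on the 26121 genes of both tables, which may have been processed apart. Fold changes have the group named before "against" on top, and their standard errors, the fold change over the square root of F, are approximate. Levels by library are CPM after TMM over all 12 libraries; FPKM divides these by the longest protein-coding transcript of GENCODE M21. The filter kept 4 members in 3 comparisons and 5 in HFD PCN against HFD Vehicle; Retnlb, Duoxa2 and Nos2 passed in none. Counts set the precision: 3 counts over a group equal 0.0675 to 0.0946 CPM.

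Members and gene lists were chosen with earlier results of these data known. Named genes are all 8 members, the first 3 tested genes of each list and any list gene called, and the 5 genes most like Reg3b and Pigr. The fitting was tested on simulated data. Alternatives were DESeq2 1.42.0, relative log expression factors, no filter, 1 fit over 12 libraries, mitochondrial and rRNA-like genes left out, each library left out, HFD Vehicle 23 and 50 left out together and, chosen after seeing the data, CPM over the library total. Leaving out HFD Vehicle 23 and 50 leaves 1 HFD Vehicle library, so only fold changes are given for it.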

Additional observations from a re-analysis of the deposited data

How the results depend on the processing

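No paired analysis was possible because the groups share no library number. The number of genes called depended heavily on the method. In HFD against Chow, 10 were called, against 137 by DESeq2, 351 with no filter on low counts, 2 with 1 fit over all 12 libraries, 7 without mitochondrial and rRNA-like genes, and 4 to 63 with 1 library left out. HFD PCN against HFD Vehicle had 10, against 320 by DESeq2, 843 with no filter, 34 with 1 fit, 4 without mitochondrial and rRNA-like genes, and 0 (without HFD PCN 11 or HFD Vehicle 50) to 3697 (without HFD Vehicle 55) with 1 library left out. In HFD Vehicle against HFD, 0 were called, against 29 by DESeq2, 1 with no filter, 1 with 1 fit, 6 without HFD Vehicle 23 and 50, and 0 to 260 (without HFD Vehicle 55) with 1 library left out. HFD PCN against HFD had 52, against 394 by DESeq2, 746 with no filter, 29 with 1 fit, and 1 (without HFD 4) to 452 (without HFD 38) with 1 library left out. Among members, Reg3b in HFD against Chow kept a log2 fold change of -3.59 to -2.85 under every alternative, but was not called with 1 fit over 12 libraries (-3.28, adjusted p 0.472) or without HFD 4, HFD 30 or Chow 8. Reg3g in that comparison lay at -2.82 to -2.12 and was called by DESeq2 and with no filter (adjusted p 9.88e-09). Reg3g was also called with no filter in HFD PCN against HFD (adjusted p 6.31e-05). Signs turned for Reg3a in HFD PCN against HFD Vehicle (-0.02 without HFD PCN 5 to 0.58 without HFD Vehicle 55, and -0.34 without HFD Vehicle 23 and 50) and in HFD Vehicle against HFD (-0.14 without HFD 4 and -0.15 without HFD 30 or HFD Vehicle 55, to 1.65 without HFD 38), for Pigr in HFD Vehicle against HFD (-0.52 without HFD Vehicle 55 to 0.09 without HFD Vehicle 23, and 0.18 without HFD Vehicle 23 and 50), and for Reg3b in HFD PCN against HFD (-1.45 without HFD PCN 5 to 0.79 without HFD PCN 27). With CPM over the library total, chosen after seeing the data, the highest HFD PCN library exceeded the lowest HFD Vehicle library by 2.59 CPM in Reg3g and the lowest HFD library by 0.7 CPM. The cause of these changes was not tested. Precision is limited by 3 libraries a group and, for Duox2, by few counts.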
